A study of Drosophila melanogaster with 6 samples.

Results

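The genes that steer axons toward or away from the midline of the Drosophila melanogaster embryo were followed in foxL1 null and wild-type embryos. They are the genes of Slit and its Robo receptors, of the Comm sorting proteins, and of the Netrins with their receptors Frazzled and Unc-5. They were chosen by name as 10 genes, of which 7 (sli, robo1, comm, comm2, NetB, fra and unc-5) had a probe set that names them alone, among 11982 such genes on the array. For robo2, robo3 and NetA no such probe set was found, and these 3 genes were not analysed here. Each gene was represented by its brightest probe set, and the dimmer probe sets of sli and unc-5 are given beside it, so that 9 probe sets were read in all.

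RNA extracted from whole embryos was read on Affymetrix Drosophila Genome 2.0 arrays, with 3 arrays of foxL1 null embryos and 3 of Oregon R wild-type embryos. The genotype label of the null group is foxLCr/foxL1del, and the growth protocol names both alleles, foxL1del and foxL1cr, for the flies whose embryos were collected. What either allele removes, how many embryos were pooled for an array, and whether every embryo carried the same alleles are not given in the sources used here. The labels give stages 11 to 15 for both groups, and the protocol has eggs collected over 8 h and aged for 11 h at room temperature. Embryos aged that long are usually older than the earliest of these stages, so label and protocol seem not to match, and neither is settled by another label. The wild-type group is Oregon R, and no control that shares the background of the null alleles is among the samples. An effect of FoxL1 loss and one of genetic background therefore cannot be told apart.

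In the fly ventral nerve cord, cells at the midline secrete both an attractant and a repellent. Netrins bind Frazzled, the fly relative of vertebrate DCC, and draw axons in, while Unc-5 turns the Netrin signal into repulsion. Slit binds the Robo receptors and repels axons. Comm keeps newly made Robo from reaching the surface of commissural axons and so lets them cross. The same molecules also act outside the nerve cord, among others in muscle, heart and trachea. In a whole embryo, fewer cells of a type and less RNA per cell cannot be told apart.

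The arrays report a log2 signal after robust multi-array averaging (RMA). The median signal of an array was 4.94, 4.87 and 4.90 in the null arrays, against 5.08, 4.96 and 5.02 in the wild-type arrays. Each null median thus lay below each wild-type median. The 25th percentile of the probe sets' mean signal was 2.99, close to the floor, where a fall can hardly show. Every difference given is the mean log2 signal of the null arrays minus that of the wild-type arrays, tested with limma; adjusted p-values take in all 18769 non-control probe sets (Benjamini-Hochberg). Signals of different probe sets are not comparable as levels of different genes. The FoxL1 probe set read 4.23, 4.35 and 3.37 in the null arrays, against 4.85, 5.12 and 5.01 in the wild-type arrays. It fell by 1.01 (SE 0.25, limma adjusted p = 0.0489), a call that was lost in 4 of the 6 fits that left out an array and after either rescaling of the arrays. Null array 3 stood apart, with a limma array weight of 0.317, against 0.600 to 2.15 for the others.

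All 7 measured genes had a negative difference, and 0 of the 7 passed the threshold, against 10.2% of all 11982 genes (4.0% as lower and 6.24% as higher). At an unadjusted p under 0.05 there were 3, comm, comm2 and unc-5, all lower, against 15.1% of all genes in that direction. The differences ran from -0.65 to -0.07 with a median of -0.38, beside a median of -0.07 over all genes, 60.0% of which had a negative difference. The titles number the arrays 1 to 3 in both groups. With that number as a block, 2 of the 7 passed as lower, comm and comm2, against 9.09% of all genes. The labels do not say what the number marks.

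comm, which encodes the sorting protein Commissureless, had the greatest difference of the 7. Its signal was 9.30, 9.58 and 8.95 in the null arrays, against 9.92, 10.04 and 9.81 in the wild-type arrays. Each null array read below each wild-type array, as held for 2 of the 7 genes, comm and comm2, and for 17.8% of all genes in that direction. The means were 9.28 ± 0.32 in the null group and 9.92 ± 0.12 in the wild type (SD, n = 3 each), a 1.56-fold lower signal in the null group. The limma difference of -0.65 (SE 0.17, 95% interval -1.03 to -0.26) missed the threshold at adjusted p = 0.0593. With the array number as a block, comm fell by 0.65 (SE 0.12, limma adjusted p = 0.0123). Of all genes, 4.11% had a difference as low as this or lower.

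comm2, a related gene of the same family, lay next in order. The null arrays read 8.78, 8.95 and 8.37, against 9.25, 9.29 and 9.14 in the wild-type arrays. The groups did not overlap here either, and null array 3 was again the lowest of the 6. The group means were 8.70 ± 0.30 in null embryos and 9.23 ± 0.07 in wild-type embryos (SD, n = 3 each). The limma difference was -0.53 (SE 0.16, 95% interval -0.89 to -0.16, adjusted p = 0.0913), a 1.44-fold lower signal. With the array number as a block, comm2 fell by 0.53 (SE 0.13, limma adjusted p = 0.0301).

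Whether comm and comm2 were called depended on the arrays used. Without null array 2, which had the highest signal of the null arrays for both genes, comm fell by 0.80 (limma adjusted p = 0.0228) and comm2 by 0.65 (adjusted p = 0.0473). Without null array 3 the differences were -0.48 and -0.36, with limma adjusted p of 0.0860 and 0.0994. The blocked fit also lost both calls when the arrays numbered 3 were left out (limma adjusted p = 0.0597 for comm and 0.104 for comm2). It kept both without the arrays numbered 1 (0.00541 and 0.0232) and without those numbered 2 (0.00611 and 0.0247). Each array centred on its own median gave -0.53 and -0.41 (adjusted p = 0.128 and 0.205), as this centring moved the median difference over all probe sets to 0.09, against -0.03 in the values as deposited. Both differences were negative under all 18 other settings tried, and the adjusted p ranged from 0.00541 to 0.207 for comm and from 0.0232 to 0.243 for comm2.

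**Figure D1:**
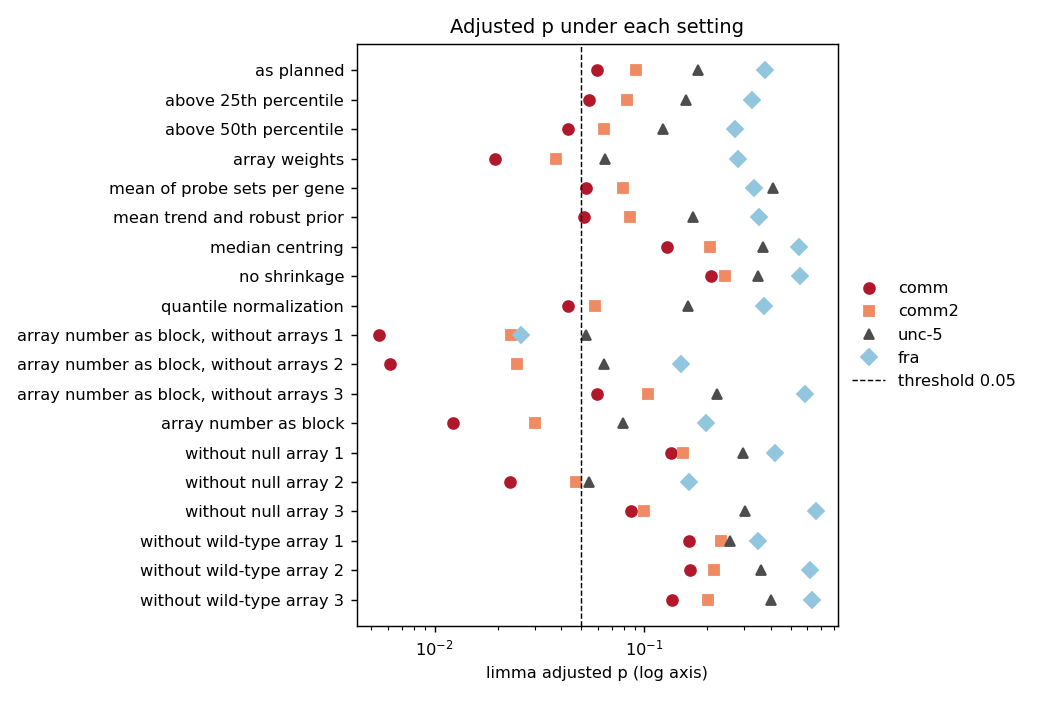
Limma adjusted p (log axis) of comm, comm2, unc-5 and fra under the planned fit (top line) and 18 other settings, with the threshold of 0.05 dashed. Points of comm lie left of the threshold in 7 settings and those of comm2 in 5.

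comm and comm2 lie close together on chromosome arm 3L, with 2 protein-coding genes between them going by the order of genes in RefSeq's Release 6 annotation. The third family member, comm3, lies on the same arm, with 20 genes between it and comm2. Its signal was 5.11, 4.57 and 5.16 in the null arrays, against 5.38, 4.96 and 5.31 in the wild-type arrays, so the groups overlapped. The difference was -0.27 (SE 0.19, limma adjusted p = 0.484). Its dimmer probe set, near the floor at 2.75 in null and 2.83 in wild-type embryos, differed by -0.07.

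Among the neighbours of comm and comm2, the measured genes between them and the 10 genes on either side, 20 had a probe set and 1 passed, which is 5.0%, beside 10.2% of all genes. This was CG12713, which rose by 0.74 (SE 0.17, limma adjusted p = 0.0362), a call that held in 1 of the 6 fits that left out an array, the one without null array 3 (adjusted p up to 0.132 in the others). The neighbours ran from -0.64 to 0.74 with a median of -0.06. Several of them had a mean signal of 2.18 to 2.71, below the 25th percentile of 2.99. A change can hardly show there, so the shares of called neighbours and their median rest partly on genes near the floor. With the array number as a block 3 passed, CG12713, DCP2 and CkIIalpha-i1, which is 15.0%, beside 17.0% of all genes. DCP2, which encodes the mRNA decapping enzyme, had a difference of -0.64 (limma adjusted p = 0.0642, and 0.0145 with the block), about that of comm. CkIIalpha-i1 was at -0.49 (adjusted p = 0.157, and 0.0485 with the block). These 3 genes were named after their values were seen.

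sli, the gene of the midline repellent Slit, had a low signal on these arrays. Its brighter probe set, at percentile 44.0 of the array, read 4.22, 4.01 and 4.09 in the null arrays, against 4.06, 4.61 and 4.30 in the wild-type arrays. The groups overlapped, and wild-type array 1 read lower than 2 of the null arrays. The means were 4.11 ± 0.11 in null and 4.32 ± 0.27 in wild-type embryos (SD, n = 3 each), with a limma difference of -0.22 (SE 0.15, 95% interval -0.57 to 0.14, adjusted p = 0.490). The dimmer probe set, at percentile 18.6 and below the 25th, differed by 0.04 (SE 0.15, adjusted p = 0.916). At that signal the dimmer probe set has little room to show a fall of sli. The brighter one, with a wild-type mean of 4.32, lay above the 25th percentile of 2.99.

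robo1, the gene of the main Slit receptor for keeping axons from crossing, had a bright probe set at percentile 89.9. It read 8.68, 9.21 and 8.85 in the null arrays, against 8.83, 9.21 and 9.01 in the wild-type arrays. The ranges nearly coincided, and the arrays numbered 2 gave the same value in both genotypes. The means were 8.91 ± 0.27 in null and 9.02 ± 0.19 in wild-type embryos (SD, n = 3 each). The limma difference was -0.10 (SE 0.16, adjusted p = 0.783), and its 95% interval of -0.49 to 0.28 leaves changes of that size in either direction possible. The sign turned to 0.01 when the arrays were centred on their medians and also without null array 1.

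NetB, a Netrin gene expressed at the midline and in some muscles, showed no difference beyond the spread. The null arrays read 7.80, 8.16 and 7.81, against 7.90, 8.13 and 7.96 in the wild-type arrays. The highest null array read above each wild-type array and the other two below each of them. The limma difference of -0.07 (SE 0.14, 95% interval -0.39 to 0.24, adjusted p = 0.817) was the smallest of the 7 and turned to 0.04 after median centring.

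The Netrin receptor genes had lower means in the null embryos, with wide spread. fra, the gene of the attractive receptor Frazzled, read 9.79, 10.05 and 9.25 in the null arrays, against 9.82, 10.27 and 10.14 in the wild-type arrays. Null array 3 alone lay far below the rest, and null array 2 read above wild-type array 1. The difference was -0.38 (SE 0.22, 95% interval -0.88 to 0.12, limma adjusted p = 0.378), and -0.15 without null array 3 (adjusted p = 0.658). It passed in 1 setting, the blocked fit without the arrays numbered 1 (-0.55, adjusted p = 0.0259).

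unc-5, the gene of the repulsive Netrin receptor, read 9.19, 9.51 and 8.90 in the null arrays, against 9.50, 9.73 and 9.66 in the wild-type arrays. The groups overlapped by a narrow margin, through null array 2 and wild-type array 1. The means were 9.20 ± 0.31 in null and 9.63 ± 0.12 in wild-type embryos (SD, n = 3 each). The limma difference was -0.43 (SE 0.16, 95% interval -0.81 to -0.05), which missed the threshold (limma adjusted p = 0.180, and 0.0790 with the block). The dimmer unc-5 probe set, at percentile 48.8, differed by less than 0.01 (SE 0.12, 95% interval -0.28 to 0.29, adjusted p = 0.992). The difference between the estimates of the unc-5 probe sets was not tested.

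**Figure D2:**
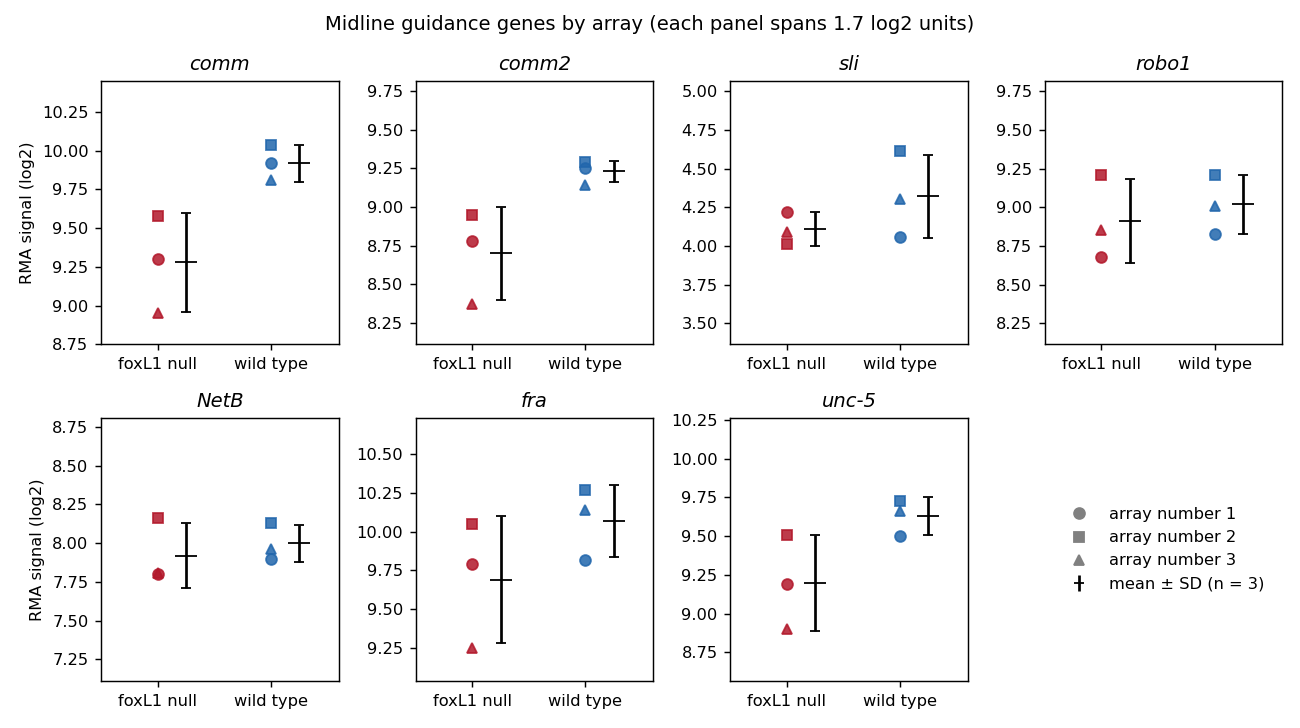
RMA signal (log2) of the 7 measured genes in each of the 3 foxL1 null and 3 wild-type arrays, with group mean ± SD as black bars and a shape for each array number. The groups are apart for comm and comm2 and overlap for the other 5 genes.

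**Figure D3:**
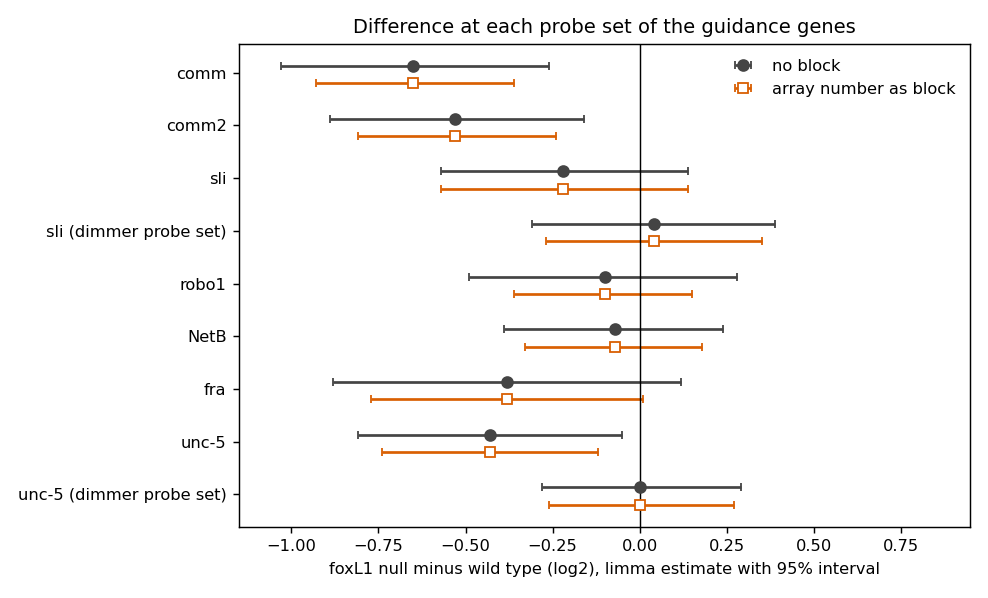
Null minus wild-type difference (log2) at each of the 9 probe sets, with limma 95% intervals without and with the array number as a block. Both intervals of comm, of comm2 and of the brighter unc-5 probe set lie below 0, and those of the dimmer sli and unc-5 probe sets span 0.

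Related genes were compared by the difference of their signals within each array, for 3 of 7 planned pairs, since the other 4 involve robo2, robo3 or NetA. The exact permutation test over 3 against 3 arrays has 20 splits and cannot give a 2-sided p below 0.1. The signal of comm exceeded that of comm2 by 0.52 to 0.63 in the null arrays and by 0.66 to 0.75 in the wild-type arrays. The groups did not overlap, and the changes of comm and comm2 differed by -0.12 on the log2 scale (exact 2-sided p = 0.1, adjusted over the 3 pairs 0.3). At the smallest p the design allows, this does not show that their changes differ. The changes of fra and unc-5 differed by 0.05 (exact p = 0.5, adjusted 0.75) and those of sli and robo1 by -0.11 (exact p = 0.8, adjusted 0.8). The difference between sli and robo1 spread widely, from -5.20 to -4.46 in the null arrays, against -4.77 to -4.60 in the wild-type arrays.

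The array number moved with most of these genes. In the wild type, array 2 gave the highest signal for 7 of the 7 genes, against 40.0% of all genes, and in the null group for 6 of the 7, all but sli, against 38.7%. Null array 3 gave the lowest null signal for 4 of the 7, comm, comm2, fra and unc-5, against 49.1% of all genes. Between arrays of the same number, the median difference over the 7 genes was -0.15, -0.22 and -0.76 for numbers 1, 2 and 3, beside -0.02, -0.06 and -0.10 over all genes. Lower in the null array of all 3 numbers were 4 of the 7, again comm, comm2, fra and unc-5, against 32.9% of all genes. For comm the differences were -0.63, -0.45 and -0.86, while for fra they were -0.03, -0.21 and -0.89, so that number 3 carried most of the difference of fra.

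**Figure D4:**
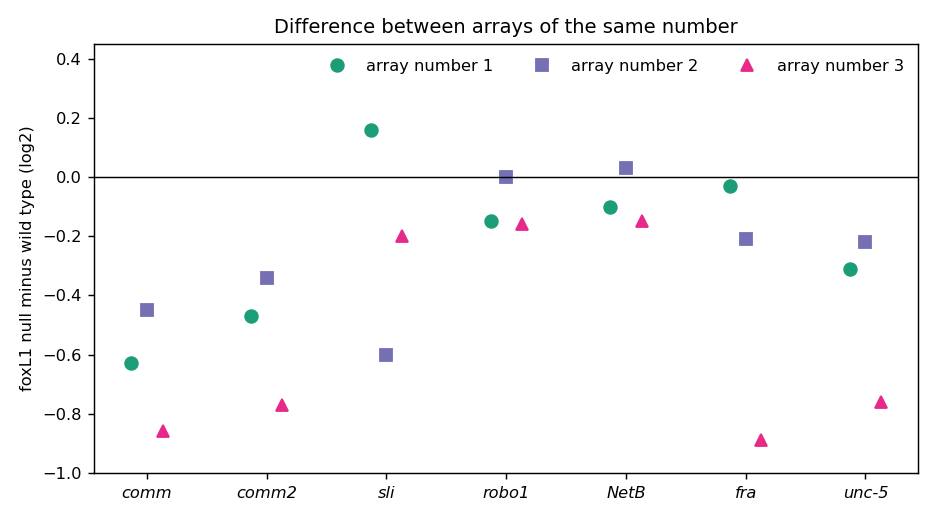
Difference between the null and the wild-type array of the same number (log2) for each of the 7 genes. All 3 points of comm, comm2, fra and unc-5 lie below 0, and number 3 lies lowest for each of these 4.

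Other genes of these pathways were read from 4 lists with 64 genes, of which 46 were measured. Of the 46, 2 rose and 3 fell, which is 10.9%, beside 10.2% of all genes, and their median difference was -0.11. With the array number as a block 4 rose and 5 fell, 19.6% in all, beside 17.0% of all genes (7.92% as higher and 9.09% as lower). Both shares of the 46 were near those of all genes. In 4 of the 6 fits that left out an array, 0 of the 46 passed, those without null array 1 or any of the wild-type arrays. The 5 genes called were Abl, Ptp10D, Dscam1, D and ind. Without null array 2 all of these 5 passed, and without null array 3 all but Dscam1 (limma adjusted p = 0.0799) did.

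Of 19 measured genes of Robo signalling and sorting, 2 rose and 0 fell, beside 6.24% and 4.0% of all genes. With the array number as a block 3 rose and 1 fell, beside 7.92% and 9.09%. Abl, a tyrosine kinase that acts downstream of Robo and Frazzled, read 6.83, 7.52 and 6.77 in the null arrays, and averaged 7.04 ± 0.42 there, against 6.06 ± 0.24 in the wild type (SD, n = 3 each). It rose by 0.98 (SE 0.22, limma adjusted p = 0.0370), with no overlap of the groups. Ptp10D, a receptor tyrosine phosphatase, rose by 0.70 (SE 0.13, adjusted p = 0.0178), though its dimmer probe set differed by 0.01. The related Ptp69D was at 0.54 (adjusted p = 0.0739, and 0.0166 with the block). siz, which encodes the Arf exchange factor Schizo, was at -0.46 (adjusted p = 0.0574, and 0.0411 with the block). Its dimmer probe set differed by -0.04 (limma adjusted p = 0.91). Nedd4, a ubiquitin ligase known to bind Comm, differed by 0.02 (SE 0.13, adjusted p = 0.965). kuz, whose protease cleaves Robo1, differed by -0.10 (adjusted p = 0.856).

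Of 10 measured partners of Netrin and Frazzled, 1 rose, Abl, and 1 fell, beside 6.24% and 4.0% of all genes. The fall was that of Dscam1, a cell adhesion receptor that can also bind Netrin, by 0.48 (SE 0.12, limma adjusted p = 0.0464). Its dimmer probe set, near the floor, differed by 0.09, and the call was lost after median centring (adjusted p = 0.170). The other 8 did not pass. The lowest was the actin regulator gene ena at -0.37 and the highest the gamma-secretase subunit gene pen-2 at 0.30 (limma adjusted p = 0.271 and 0.192), with Psn of the same protease at 0.28 (adjusted p = 0.141). SCAR, Hem and Cyfip, which encode members of an actin-regulating complex, were at -0.29, -0.21 and 0.06. Of 4 measured genes of the Wnt5 and Derailed system, which sorts axons between commissures, 0 passed. At their brightest probe sets 0 had an unadjusted p under 0.05. The receptor genes drl and dnt were at -0.43 and -0.18 (limma adjusted p = 0.297 and 0.523). The related Drl-2 was at 0.29 (limma adjusted p = 0.546). Its dimmer probe set was at -0.31 (limma unadjusted p = 0.0337, adjusted p = 0.185), without overlap of the groups.

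Of 16 measured transcription factors known to regulate guidance genes or the cells that express them, 2 fell and 0 rose. The shares over all genes were 4.0% and 6.24%. With the array number as a block 3 fell and 1 rose, beside 9.09% and 7.92% of all genes. A negative difference was found for 15 of the 16, beside 60.0% of all genes. Their median was -0.17, beside -0.07 over all genes. For sim and vnd, also on this list, no probe set that names them alone was found. D, the Sox gene Dichaete, which acts at the midline and in the neuroectoderm, fell by 0.80 (SE 0.15, limma adjusted p = 0.0189), and ind, which patterns the neuroectoderm, by 0.87 (SE 0.18, adjusted p = 0.0249). SoxN was at -0.52 (adjusted p = 0.102, and 0.0397 with the block). lola was at 0.66 (adjusted p = 0.0640, and 0.0373 with the block), but its many probe sets ran from -0.46 to 0.75, and the one at 0.75 passed (adjusted p = 0.0111). mid, exex, grn and tup did not pass.

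**Figure D5:**
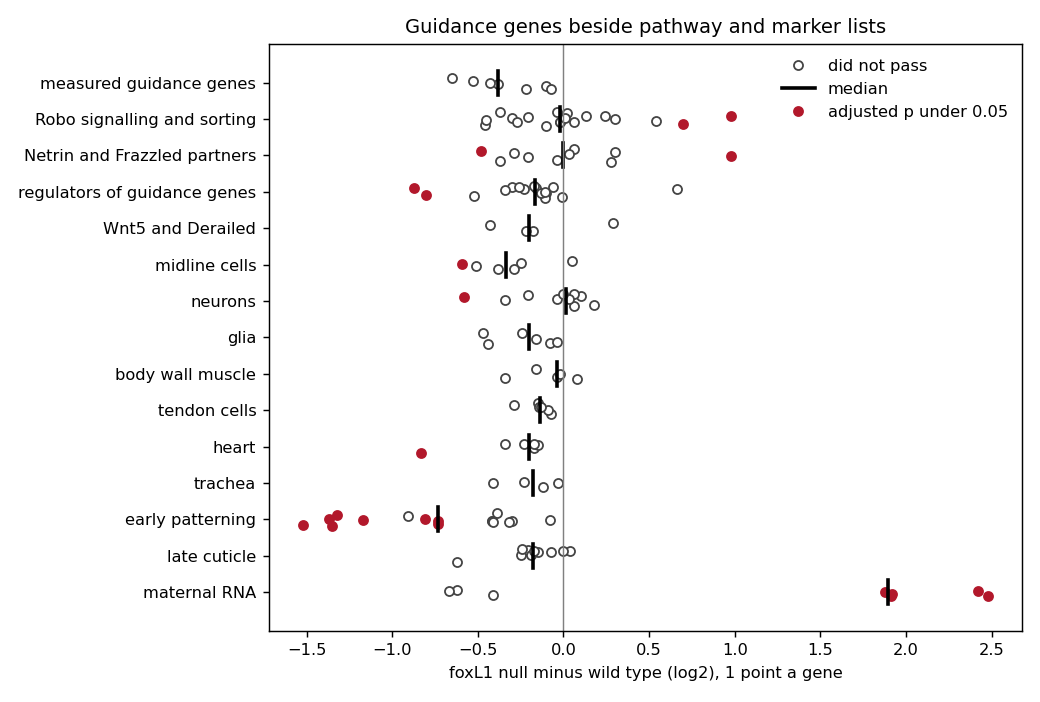
Null minus wild-type difference (log2) of the 7 measured guidance genes and of each measured gene of 4 pathway lists and 10 marker lists, 1 point a gene, with list medians as black bars and genes past the adjusted threshold filled. The guidance genes have a median of -0.38, the early patterning list -0.73 and the maternal RNA list 1.89.

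Markers of the cells that express these genes were set beside them. Among all genes, 4.0% fell and 6.24% rose, and with the array number as a block 9.09% and 7.92%. Of 9 midline markers chosen 6 were measured, while sim, rho and Glec could not be read here. Of the 6 measured midline markers 1 fell and 0 rose, with a median of -0.33. With the array number as a block 2 fell, Egfr and aos, the gene of a secreted inhibitor of Egfr, at -0.51 (limma adjusted p = 0.0912, and 0.0401 with the block). The log2 of the summed signal of the 6 markers was 10.83 to 11.02 in the null arrays, against 11.16 to 11.30 in the wild-type arrays, without overlap. Single genes were apart in that direction for 17.8% of all genes, and each null array median lay below each wild-type one. The same limits hold for the sums of the other marker lists. The brightest of the 6 markers, spi, weighs most in the midline sum. It read 9.93 to 10.3 in the null arrays and 10.29 to 10.38 in the wild-type arrays, and these overlapped. In the unblocked fit the fall was that of Egfr, by 0.59 (limma adjusted p = 0.0496), a gene active in many tissues. The call held in 1 of the 6 fits that left out an array, the one without null array 2 (adjusted p up to 0.151 in the others). After median centring it was lost (limma adjusted p = 0.137). The gene wrapper, which encodes a surface protein of midline glia, was at 0.05 (adjusted p = 0.910). Of 10 neuronal markers 1 fell, the synaptic gene Snap25 (by 0.58, limma adjusted p = 0.0111), with a median of 0.01. In each fit that left out a wild-type array, 0 of the 10 passed. The sums of the neuronal markers overlapped (11.83 to 12.20 in null, 11.93 to 12.04 in wild type). Of 6 glial markers 0 passed, with a median of -0.20 and sums of 11.53 to 11.79 in null and 11.81 to 11.98 in wild-type arrays. The pan-neuronal gene elav was at 0.18 and the glial gene repo at -0.16, and neither passed.

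Muscle, tendon, heart and tracheal markers were read for the tissues outside the nerve cord. Of 5 muscle, 6 tendon and 4 tracheal markers 0 passed at their brightest probe sets, with medians of -0.04, -0.13 and -0.18. A dimmer probe set of the tendon marker Tsp, at percentile 57.3, fell by 0.76 (limma adjusted p = 0.00602), without overlap of the groups. The brighter Tsp probe set was at -0.15 (adjusted p = 0.54). Of 6 heart markers 1 fell, the GATA factor gene pnr (by 0.83, limma adjusted p = 0.0337), and their median was -0.20. Among all genes, 4.0% fell. The call of pnr held in 1 of the 6 fits that left out an array, the one without null array 2 (adjusted p up to 0.119 in the others), and was lost after median centring (0.0548). The summed signal of muscle markers overlapped between the groups (13.19 to 13.64 in null, 13.26 to 13.64 in wild type), as did that of tendon markers (11.05 to 11.29 and 11.25 to 11.37) and tracheal markers (9.04 to 9.51 and 9.32 to 9.64). That of heart markers did not (10.24 to 10.44 and 10.61 to 10.65).

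Early patterning, late cuticle and maternal genes were read as rough marks of embryo age. The early and maternal lists differed between the groups in opposite directions, with medians of -0.73 and 1.89. Whether they mark a shift of age was not tested. Among all genes, 4.0% fell and 6.24% rose. Of the early list, eve also stands among the transcription factors above and kni among the tracheal markers. Of 16 measured early patterning genes 8 fell and 0 rose, with a median of -0.73 and summed signals of 10.94 to 11.46 in the null arrays, against 11.65 to 11.79 in the wild-type arrays. With the block 9 of them fell, the ninth being hkb (adjusted p = 0.0530, and 0.00638 with the block). Of 10 late cuticle genes 0 passed, with a median of -0.18. With the array number as a block 1 of these fell, the cuticle protein gene TwdlT, at -0.62 (limma adjusted p = 0.285, and 0.0157 with the block). Of 8 maternal transcripts 5 rose and 0 fell, with summed signals of 11.81 to 11.91 in null and 9.81 to 10.35 in wild-type arrays. The other 3, png, osk and gnu, were at -0.41, -0.62 and -0.67 (limma adjusted p = 0.0978, 0.216 and 0.262). They passed as lower without null array 2, as 2 of the 3 did with array weights, while the count that rose was 5 in each of these fits. The part of embryo age, of maternal RNA or of the number of midline cells in the lower comm and comm2 signals was not tested. Without null array 3 the early patterning median was -0.62 and 5 of its genes fell, as 5 did without null array 1 and 4 without wild-type array 1 or 2. Of the maternal transcripts 5 rose without null array 3. The midline median was then -0.25, and 0 of its genes passed.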

How the data were processed

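The deposited values are log2 expression values per probe set, made by the authors with RMA in Partek, per the submitters' processing notes; versions and the genome build are not given in the sources used here. RMA corrects the background, sets the arrays to a shared distribution and summarises probes, which compresses changes of dim genes. From these values, 183 of the 18952 probe sets were left out as controls. Of the other 18769, 13647 name 1 gene in the platform annotation, with symbols updated through a RefSeq gene table (Release 6 plus ISO1 MT), used otherwise only for gene order. All 18769 entered a limma fit (version 3.58.1, R 4.3.3; lmFit, then eBayes) with genotype as the only term, with 2-sided p adjusted by Benjamini and Hochberg and a threshold of 0.05; SE and 95% intervals are limma's. The fits were also run on simulated data with independent noise and changes larger than that of any measured guidance gene. That run therefore does not bear on differences of the size found here. The labels call the 3 samples of a genotype independent biological samples, and precision is limited by there being 3 of each.

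The array numbers come from the titles. Arrays of the same number deviated from their group's mean together (r across probe sets of 0.108, 0.544 and 0.224 for numbers 1, 2 and 3). Each exceeded 0.1, and the numbers were therefore treated as pairs, on the data alone; wild-type array 1 correlated more with null array 3 (0.266). The fit as planned is unblocked; a value with the number as a block stands beside it where a call of a named gene or a list's count changes. Members and lists were chosen with earlier results of these data known. All members and their probe sets are named, FoxL1, and of each pathway list the genes past the threshold, up to 4 by smallest p, or otherwise the 2 with the smallest p. Of each marker list at most 3 are named. Exceptions, named after their values were seen, are comm3, Ptp69D, siz, Nedd4, kuz, ena, SCAR, Hem, Cyfip, Psn, pen-2, SoxN, lola, mid, exex, grn, tup, wrapper, elav, repo, hkb, png, osk, gnu and the neighbours of comm. Also named after their values were seen are spi, Drl-2, eve, kni, Tsp and the dimmer probe set of siz. Alternatives were the block, each array left out, other scalings, a trended prior, array weights, no shrinkage, filters on dim probe sets and the mean of a gene's probe sets.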

Additional observations from a re-analysis of the deposited data

How the results depend on the processing

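No measured guidance gene passed in the planned fit, and 11 of the 18 other settings gave 0 as well. The count was 1 after another quantile normalization and with probe sets above the 50th percentile of signal, and 2 with array weights or with the array number as a replicate block. The fits that left out an array gave 0 to 2. The blocked fit without the arrays numbered 1 or 2, chosen after seeing the data, gave 3 and 2. Calls over all probe sets were 1472 as planned, 2460 with array weights, 562 without shrinkage, 2441 with the block, 2508 with the block and without the arrays numbered 1, and 663 to 1513 with an array left out. Among the 46 pathway genes the planned 5 became 11 with array weights, 3 with the mean of a gene's probe sets, 0 without shrinkage, 8 after quantile normalization, 9 with the block and 0 to 8 with an array left out. The sign turned for robo1 (0.01 after median centring, and -0.25 to 0.01 with an array left out) and for NetB (0.04 after centring). The pair differences ran with an array left out from -0.29 to 0.09 for sli minus robo1, from -0.01 to 0.12 for fra minus unc-5 and from -0.15 to -0.09 for comm minus comm2. With each array centred on its median the calls were 1503 (1179 higher and 324 lower), beside 887 higher and 585 lower as planned. The cause of these shifts was not tested.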
